A study of Mus musculus with 21 samples.

Results

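The genes described here carry the names of cytosolic ribosomal proteins. They were picked by symbol: Rpl or Rps followed by a number, with an a, x, l or y allowed at the end, plus Rplp0, Rplp1, Rplp2 and Rpsa, while symbols marked as pseudogenes (-ps) were left out. This took 86 of the 24454 genes in the count table, of which 33 belong to the small subunit (Rps) and 53 to the large subunit (Rpl). The rule used no measured value. 9 of the 86 carry an extra l in their symbol because they resemble another ribosomal protein gene, and these are called paralogs below: Rpl3l, Rpl7l1, Rpl10l, Rpl22l1, Rpl32l, Rpl36al, Rpl39l, Rps4l and Rps27l. RefSeq annotates one of these, Rps4l, as a transcribed pseudogene, although its symbol does not mark it as one.

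Ribosomal proteins are made in the cytoplasm, carried into the nucleolus and joined there to ribosomal RNA, with assembly factors such as nucleophosmin (Npm1) and nucleolin (Ncl) taking part. Most of their mRNAs are abundant and short and begin with a run of pyrimidines, the terminal oligopyrimidine (TOP) motif, through which mTOR and LARP1 control translation. Several free ribosomal proteins, Rpl5 and Rpl11 among them, bind the ubiquitin ligase Mdm2 and thereby stabilise p53.

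The libraries were poly(A) RNA-seq of mouse embryonic fibroblasts (MEFs) whose Rtel1 or Terf1 gene is flanked by loxP sites (F/F). Rtel1 encodes a helicase that unwinds telomeric t-loops and G-quadruplex (G4) DNA, and Terf1 encodes the shelterin protein TRF1. There were 7 groups of 3 libraries. Rtel1 F/F cells were infected with adenovirus carrying GFP (+GFP, the control) or Cre and GFP (+Cre), or infected with the GFP virus and given 10 µM TMPyP4, a porphyrin that binds G4-DNA, for 48 h (+TMPyP4). A retroviral vector supplied RTEL1 C1252A/C1255A (RTEL1 CA, which cannot bind TRF2) to further Rtel1 F/F cells, and these were infected with either virus, as were Terf1 F/F cells. Cells were harvested 96 h after infection, and all 21 libraries thus share exposure to an adenovirus. The libraries of a group are labelled as biological replicates, and how many cell lines or animals stood behind them is not given in the sources used here. All values come from bulk RNA, in which fewer cells expressing a gene and less RNA per cell cannot be told apart.

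The libraries held 32069888 to 51938593 counts (median 43013208). The targeted genes followed the labels: Rtel1 stood at 59.1 to 66.2 CPM (counts scaled to the library total) in the +GFP libraries and at 26.8 to 31.9 CPM in the +Cre libraries, and Terf1 stood at 27.9 to 30.3 CPM in control libraries of the Terf1 line and at 0.0268 to 0.110 CPM after Cre. In RTEL1 CA cells the Rtel1 row stood at 253 to 338 CPM, in which vector and endogenous transcripts cannot be told apart. Of 10 fibroblast markers, 9 were above 1 CPM in every library, with Thy1 as the exception (0.02 to 269 CPM). The marker lists of epithelial, endothelial, erythroid, leukocyte, neural and muscle cells each summed to at most 23.9 CPM. The 3 Rtel1 F/F +GFP libraries stood apart from the other 12 libraries of the Rtel1 line, including RTEL1 CA cells infected with the same GFP virus. The comparisons that rest on them are therefore also given with the RTEL1 CA +GFP libraries in their place, apart from the comparison of these 2 groups with each other.

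The start sites of the genes were looked at first, because the TOP motif begins at the first transcribed base. RefSeq (GRCm38.p6, the assembly behind mm10) gave a promoter of 300 bases, 250 before and 50 after the first listed start, for 65 of the 86 genes. A run of 8 or more C or T within the 15 bases on either side of the start was present in 26 of the 65 (40%), against 11.5% of 10331 other tested genes and 11.9% of all 27025 promoters. Such a run could lie anywhere in the window, so these shares count runs near the annotated start and not TOP motifs. That of Rps27l, 9 bases long from position -12, lies wholly before the start. The following 30-base windows are centred on the start, read 5′ to 3′ on the coding strand, with the longest run of C and T in capitals. They are shown for 5 genes with such a run (Rpl7a, the S6 kinase substrate Rps6, the paralogs Rps27l and Rpl22l1, and the stalk gene Rplp2) and for 3 without one (Rpl26 and the paralogs Rpl36al and Rpl7l1), all of which return in the comparisons below.
Rpl7a: aTTCCCTCTTCTTTCTTTCTCCagcagccg
Rps6: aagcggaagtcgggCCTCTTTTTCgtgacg
Rps27l: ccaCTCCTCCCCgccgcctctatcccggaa
Rpl22l1: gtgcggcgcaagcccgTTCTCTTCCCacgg
Rplp2: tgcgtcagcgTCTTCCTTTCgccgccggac
Rpl26: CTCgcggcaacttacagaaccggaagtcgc
Rpl36al: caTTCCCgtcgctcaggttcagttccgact
Rpl7l1: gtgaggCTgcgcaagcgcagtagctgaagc
The windows lie at chr2:26910792-26910821 on the + strand for Rpl7a, chr4:86857353-86857382 on the − strand for Rps6, chr9:66946071-66946100 on the + strand for Rps27l and chr3:28805493-28805522 on the + strand for Rpl22l1. Those of Rplp2 and Rpl26 are at chr7:141447636-141447665 and chr11:68901551-68901580, both on the + strand, and those of Rpl36al and Rpl7l1 at chr12:69184053-69184082 and chr17:46782642-46782671, both on the − strand. The genes themselves were spread over 19 chromosomes, with 14 of them on chromosome 7.

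In the whole 300-base promoters, CCGGAAG, one form of the ETS factor motif, was found on either strand in 25 of the 65 (38.5%), against 17.4% of the other tested genes and 9.12% of all promoters. GGGCGG, the GC box, was found on either strand in 39 (60%), against 65.2% of other tested genes. TATAAA lay in the 40 bases before the start of 1 gene (1.54%), against 1.36%. A pattern that can fold into a G4, with 4 runs of at least 3 G spaced by 1 to 7 bases on either strand, was found in 6 promoters (9.23%), those of Rpl6, Rpl31, Rpl36al, Rps10, Rps19 and Rpsa, against 28.1% of other tested genes and 18.1% of all promoters. These matches describe letters in a window and are not evidence of binding.

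Levels were compared between genes in TPM, the number of transcripts scaled to a fixed total, which allow for transcript length. Averaged over the 21 libraries, Rps12 was highest at 6139 TPM, followed by Rps2 (5455), Rps18 (4991), Rpl39 (4827) and Rpl41 (4777). The order within these 5 changed with the group: Rps2 led in Rtel1 F/F +GFP libraries at 5517 ± 813 TPM (SD, n = 3) with Rps12 at 4303 ± 195, whereas Rps12 led in Terf1 F/F +GFP libraries at 5993 ± 267 with Rps2 at 3330 ± 134. The 5 with the lowest mean over all libraries were paralogs: Rps4l (16.6 TPM), Rpl32l (4.97), Rpl39l (1.39), Rpl3l (0.0143) and Rpl10l (0.00238). In the Terf1 line the order differed, with Rps27 at 7.56 ± 2.98 TPM with GFP and 11.7 ± 2.96 TPM with Cre, below Rps4l at 34.9 ± 10.2 and 41.3 ± 6.88 TPM. Rpl10l had 1 count and Rpl3l 7 counts over all libraries, so these 2 were not tested and 84 of the 86 entered the tests, which covered 13719 genes.

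The share of each library's counts that came from the 86 genes fell into 2 ranges that did not overlap. In Rtel1 F/F cells it was 5.25, 4.98 and 5.55% in the +GFP libraries, 7.17, 6.25 and 7.26% in the +Cre libraries and 6.66, 6.66 and 7.15% in the +TMPyP4 libraries. In RTEL1 CA cells it was 6.92, 7.08 and 7.21% with GFP and 7.03, 7.03 and 7.65% with Cre. In Terf1 F/F cells it was 5.00, 5.47 and 5.03% with GFP and 5.04, 5.08 and 5.39% with Cre. The 3 Rtel1 F/F +GFP libraries and the 6 Terf1 F/F libraries thus held 4.98 to 5.55%, and the other 12 held 6.25 to 7.65%. The summed level of the 10 fibroblast markers moved with this split, running from 20985 to 22893 CPM for Rtel1 F/F +GFP and from 22904 to 30118 CPM for the Terf1 line, against 9151 to 15568 CPM in the other 12 libraries, and its part in the share was not tested. The large subunit took more of the counts than the small subunit in every library, at a ratio of 1.33 to 1.42.

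**Figure D1:**
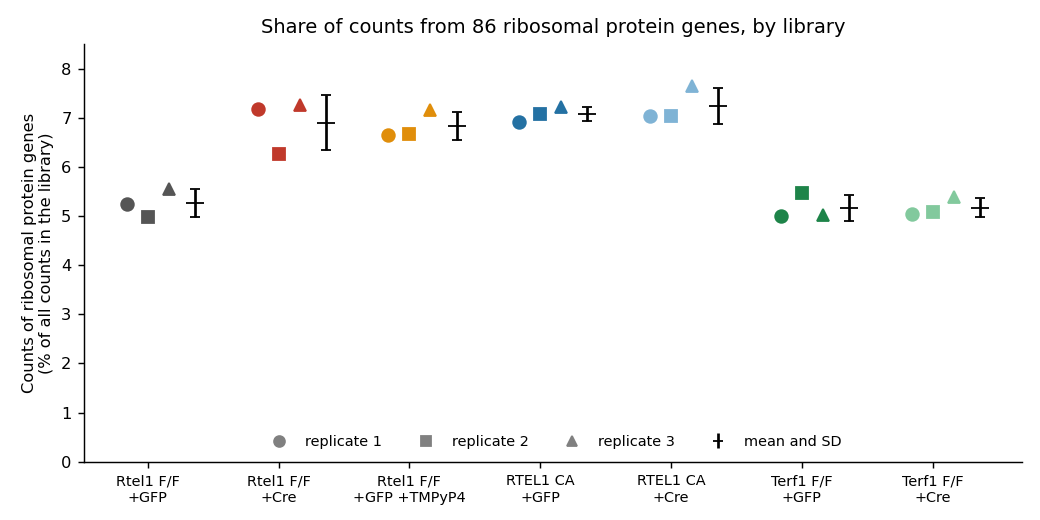
Share of each library's counts, in percent, that came from the 86 cytosolic ribosomal protein genes (marker shapes, replicates 1 to 3; line with bars, mean and SD of each group of 3). The Rtel1 F/F +GFP libraries and all 6 Terf1 F/F libraries lie at 4.98 to 5.55%, and the other 12 at 6.25 to 7.65%.

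The same split was seen gene by gene within the Rtel1 line. For 51 of the 84 tested genes, all 3 +GFP libraries were below every one of the other 12 libraries of the line, against 18.3% of all tested genes, and for none of the 84 were all 3 above, against 18% of all tested genes. The +GFP group had the lowest mean of the 5 groups for 71 genes and the highest for 3, which were Rplp0, Rplp1 and Rps27. The shares of all tested genes with these ranks are not given here, so the counts cannot be read as particular to the 84. For Rps27 summed with its abundant copy Rps27rt the rank turned, with a mean of 339 CPM in +GFP libraries and 427 to 521 CPM in the other 4 groups. These counts describe the libraries and carry no test.

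**Figure D2:**
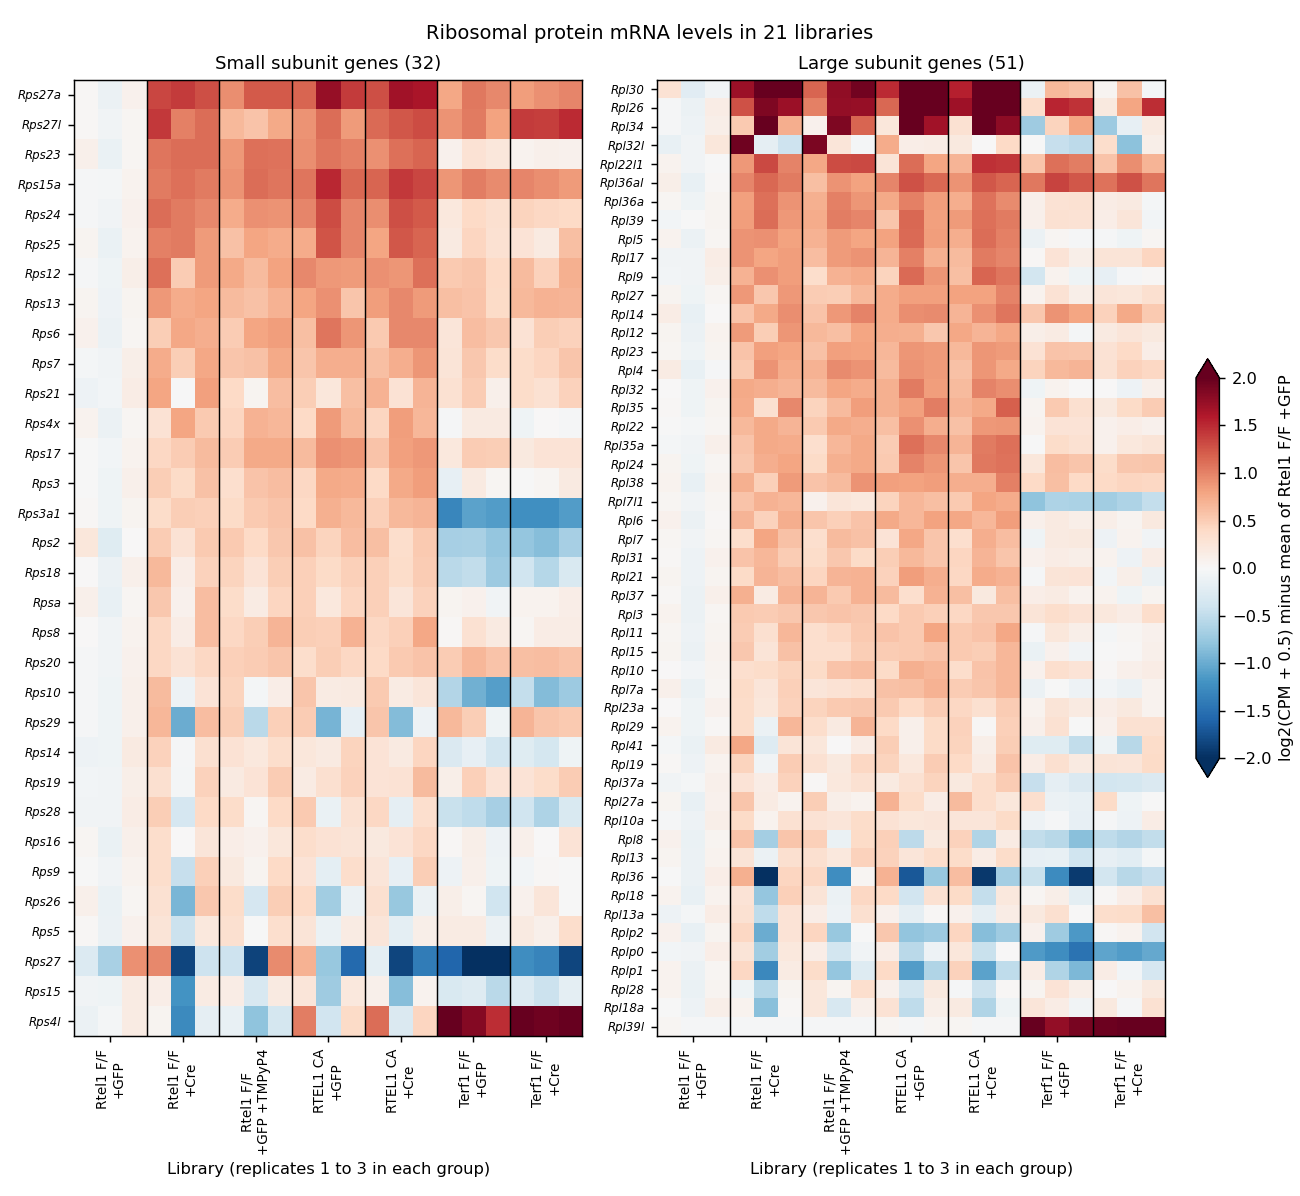
Level of 83 of the tested genes in the 21 libraries, as log2(CPM + 0.5) minus the mean of the Rtel1 F/F +GFP libraries (red, higher; blue, lower; colours clipped at ±2), with 32 small-subunit and 51 large-subunit genes in 2 panels. Most genes are above the Rtel1 F/F +GFP level in the other groups of the Rtel1 line, and a few, such as Rpl36, are lowest in the replicate 2 libraries.

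Loss of Rtel1 was addressed by comparing +Cre with +GFP libraries of Rtel1 F/F cells. Of the 84 ribosomal protein genes, 52 rose and none fell (edgeR quasi-likelihood test, Benjamini-Hochberg adjusted p of at most 0.01 over 13719 genes), where 22.0% of all tested genes rose and 21% fell. An unadjusted p under 0.05 was reached by 58, and DESeq2 called 55 higher and none lower. The median log2 fold change was 0.52, against -0.03 over all tested genes. For 53 genes all +Cre libraries were above all +GFP libraries, a pattern shown by 29.4% of tested genes, and for none were they all below, against 32.1%.

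The rise took in both subunits, with 20 of 33 small-subunit genes (median log2 fold change 0.43) and 32 of 51 tested large-subunit genes (0.58). Rpl30, a large-subunit protein, stood at 45, 31.3 and 34.9 CPM in the +GFP libraries and at 121, 157 and 191 CPM in the +Cre libraries, a 4.22-fold difference (log2 2.08 ± 0.29 SE, adjusted p = 1.48e-05). Every +Cre library was thus above every +GFP library, and the replicates of each group lay closer to each other than to the other group. Rpl26, which sits near the peptide exit tunnel and can bind Mdm2, stood at 203, 191 and 229 CPM with GFP and at 499, 759 and 679 CPM with Cre (log2 1.64 ± 0.35, adjusted p = 8.34e-04). Rps27a, made as a fusion with ubiquitin, stood at 394, 356 and 409 CPM with GFP and at 974, 1013 and 949 CPM with Cre (log2 1.34 ± 0.13, adjusted p = 1.46e-07). Neither gene's groups overlapped, and the +Cre replicates of Rpl26 were the more widely spread.

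All 6 of the Mdm2-binding members chosen for naming rose: beside Rpl26 these were Rpl5 (log2 fold change 0.87), Rpl23 (0.73), Rps7 (0.67), Rpl11 (0.50) and Rps3 (0.49), with adjusted p from 7.58e-07 to 0.0022. Rps6, whose phosphorylation by S6 kinase is a common readout of mTOR, rose by 0.67, Rpl38, known for its part in translating Hox mRNAs, by 0.68, and Rpsa, also known as the laminin receptor, by 0.42. Rpsa was the single member that was called although its libraries overlapped, with 1940.2 CPM in +Cre replicate 2 against 1959.6 CPM in +GFP replicate 1. Rps19 and Rpl10a, both at 0.26 on the log2 scale, did not pass (adjusted p = 0.103 and 0.0164).

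The 3 stalk proteins, which recruit elongation factors to the ribosome, did not pass in this comparison. Rplp0 stood at 2937, 2933 and 3345 CPM with GFP and at 3676, 1900.0 and 3547 CPM with Cre (log2 -0.01 ± 0.22, adjusted p = 0.966). Rplp1 stood at 787, 689 and 768 CPM with GFP and at 993, 304 and 839.7 CPM with Cre. In both genes +Cre replicates 1 and 3 were above all +GFP libraries and replicate 2 was below them, so the groups overlapped through 1 library. Rplp2 behaved in the same way, with 536, 199.98 and 485 CPM after Cre against 427, 363 and 415 CPM.

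**Figure D3:**
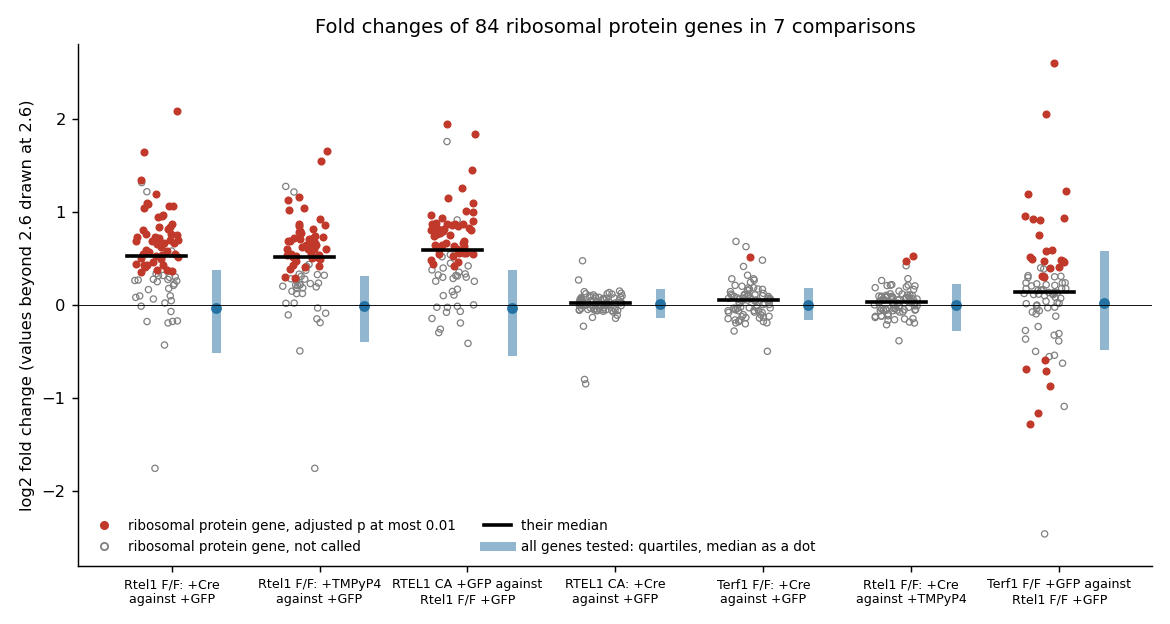
Log2 fold change of each of the 84 genes in 7 comparisons (filled red, adjusted p of at most 0.01; open, not called; black line, their median; blue bar and dot, quartiles and median of all tested genes; values above 2.6, here Rpl39l in the last comparison, drawn at 2.6). The medians are 0.52 and 0.51 for Cre and TMPyP4 in Rtel1 F/F cells and 0.02 and 0.05 for Cre in RTEL1 CA and Terf1 F/F cells.

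The genes that rose after Cre, against Rtel1 F/F +GFP only, were also counted by promoter feature, without a test. Of the tested genes with a promoter, 14 of 26 with a C or T run of 8 or more near the start rose (median log2 fold change 0.52), and 26 of 37 without one (0.58). With CCGGAAG 17 of 25 rose (0.50), and without it 23 of 38 (0.69). Of the 6 with the G4 pattern 4 rose (0.50), and of the 57 without it 36 rose (0.58), where 6 genes are too few to compare. Among the sequences printed above, Rplp2 with a run of 10 bases did not pass, Rps6 with a run of equal length did, and Rpl26, whose longest run is 3 bases, had the second largest rise of all.

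G4-DNA stabilisation was addressed by comparing +TMPyP4 with the same +GFP libraries. Here 50 of the 84 rose and none fell, where 16.6% of all tested genes rose and 13.4% fell. An unadjusted p under 0.05 was reached by 58, and DESeq2 called 51 higher and none lower. Without all libraries numbered 2, which were the lowest for several members, 32 rose. The share of all tested genes in that smaller fit is not given here, so fewer libraries and a change particular to these genes cannot be told apart. The median log2 fold change was 0.51, against -0.01 over all tested genes. For 58 genes all +TMPyP4 libraries were above all +GFP libraries, against 29.3% of tested genes, and for 1, Rps4l, all were below, at 2.95, 1.69 and 2.48 CPM against 3.00, 3.19 and 3.77 CPM, without passing the test (adjusted p = 0.395).

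The rise after TMPyP4 took in 18 small-subunit genes (median log2 fold change 0.47) and 32 large-subunit genes (0.54). Rpl30 stood at 83.0, 127 and 140.4 CPM (log2 1.66 ± 0.29 against +GFP, adjusted p = 2.28e-04), Rpl26 at 419, 704 and 691 CPM (1.54 ± 0.35, adjusted p = 0.00208) and Rpl22l1, a paralog of Rpl22, at 154, 222 and 223 CPM (1.16 ± 0.23, adjusted p = 7.85e-04). In each of these 3 genes replicate 1 was the lowest of the treated libraries and still above all +GFP libraries. Rpl5 rose by 0.78, Rpl11 by 0.42 and Rps6 by 0.72 on the log2 scale, and Rplp0 (-0.09), Rplp1 (-0.15), Rplp2 (-0.03) and Rpsa (0.32, adjusted p = 0.0353) did not pass.

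The control libraries of these 2 comparisons are the same, and they were also compared with RTEL1 CA +GFP cells, which carry the vector and no deletion. The paper lists RTEL1 CA cells as a separate entry with another source than Rtel1 F/F cells. Mutant, vector and the history of the cells thus cannot be told apart here, nor where RTEL1 CA +GFP serves as the control. Of the 84 genes, 51 were higher in RTEL1 CA +GFP cells and none lower, where 22.6% of all tested genes were higher and 22.1% lower. The median log2 difference was 0.58, against -0.03 over all tested genes, and DESeq2 called 58 higher and none lower. For 64 genes all RTEL1 CA +GFP libraries were higher, against 30.5% of tested genes, and for none lower, against 33.0%. Rpl30 stood at 103, 160.3 and 162 CPM (log2 difference 1.94), Rpl26 at 459, 924.5 and 834 CPM (1.83) and Rps27a at 861, 1287 and 1015 CPM (1.45). None of these libraries overlapped with the Rtel1 F/F +GFP libraries, and their ranges overlapped with those of the +Cre libraries.

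With RTEL1 CA +GFP as the control in place of Rtel1 F/F +GFP, none of the 84 was called in +Cre cells in either direction, where 3.80% of all tested genes were higher and 3.95% lower, and 5 of the 84 reached an unadjusted p under 0.05. The median log2 difference was -0.06, against 0.00 over all tested genes. Rpl30 then stood at 0.14 ± 0.28, Rps27a at -0.11 ± 0.13 and Rpl26 at -0.19 ± 0.34. In +TMPyP4 cells none was higher and 2 were lower against this control, Rpl7a (-0.34 ± 0.08, adjusted p = 0.00234) and Rpl7l1 (-0.40 ± 0.08, adjusted p = 0.00163), where 9.94% of all tested genes were higher and 7.07% lower, with 13 of the 84 at an unadjusted p under 0.05. The rise of ribosomal protein genes after Cre or TMPyP4 was thus measured against 1 set of 3 libraries, and was not found against the other GFP-infected libraries of the line. Why these control libraries stood apart was not tested. Replicate number was not used as a block in the tests against RTEL1 CA +GFP.

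Within RTEL1 CA cells, Cre and GFP were compared directly. None of the 84 was called in either direction, where 0.525% of all tested genes rose and 0.569% fell, with 1 gene, Rps27l, at an unadjusted p under 0.05 and none called by DESeq2. The median log2 fold change was 0.02, against 0.00 over all tested genes, and for 1 of the 84 all Cre libraries were higher, against 9.04%, and for none lower, against 7.15%. Rpl30 stood at 108, 169.6 and 194 CPM with Cre against 103, 160.3 and 162 CPM with GFP, and the groups overlapped. In both groups replicate 1 was the lowest, and libraries with the same number deviated together over all genes. With the replicate number as a block, still none of the 84 was called.

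In Terf1 F/F cells 1 of the 84 rose after Cre and none fell, where 2.65% of all tested genes rose and 0.765% fell. No other member reached an unadjusted p under 0.05, and DESeq2 called 1 higher and none lower. The gene was Rps27l, a paralog of Rps27 that p53 is known to induce. It stood at 186, 205 and 174 CPM with GFP and at 263, 262 and 282 CPM with Cre (log2 0.51 ± 0.10, adjusted p = 0.00224), so that all Cre libraries were above all GFP libraries. The call was lost, with the direction kept, without +GFP replicate 1, +GFP replicate 3 or +Cre replicate 3. The median log2 fold change of the 84 was 0.05, and for 5 of them all Cre libraries were higher, against 13.1% of all tested genes, and for none lower, against 13.8%. Rpl30 stood at 33.7, 57.6 and 55.2 CPM with GFP and at 38.1, 55.4 and 35.8 CPM with Cre, with overlapping groups.

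The effect of Cre itself was then tested between cells, as the difference of 2 log2 fold changes in the one fit. It was greater in Rtel1 F/F than in RTEL1 CA cells for 34 of the 84 and smaller for none, where 12.8% of all tested genes had a greater and 12.3% a smaller effect. It was greater in Rtel1 F/F than in Terf1 F/F cells for 41 and smaller for none, where 15.8% and 14.5% of all tested genes differed in those directions. Rps27a differed by 1.24 ± 0.18 on the log2 scale from RTEL1 CA cells (adjusted p = 4.82e-05) and by 1.36 ± 0.18 from Terf1 F/F cells (adjusted p = 1.44e-05). Both differences contain the Rtel1 F/F +GFP libraries described above. With RTEL1 CA +GFP in their place, the difference from RTEL1 CA cells becomes that between the +Cre libraries of both, and edgeR called none of the 84 in either direction, with 4 at an unadjusted p under 0.05, where 1.76% of all tested genes were higher and 2.54% lower. For the difference from Terf1 F/F cells none was called either, with 2 at an unadjusted p under 0.05, where 1.64% and 2.73% of all tested genes differed. DESeq2 was not run with this control. The median log2 differences were -0.06 and -0.10, and those of Rps27a were -0.20 ± 0.13 and -0.08 ± 0.18.

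Loss of Rtel1 and TMPyP4 were also compared with each other, without those control libraries. Of the 84 genes 2 were higher after Cre and none lower, where 6.13% of all tested genes were higher and 9.09% lower. An unadjusted p under 0.05 was reached by 6, DESeq2 called 2 higher and none lower, and the median log2 difference was 0.03. All libraries were higher for 7 and lower for 3, against 17.6% and 20.2% of all tested genes. Both genes called were paralogs. Rps27l stood at 266, 200.2 and 217 CPM after Cre and at 156, 149 and 169 CPM after TMPyP4 (log2 0.53 ± 0.10, adjusted p = 5.60e-04). Rpl7l1, which resembles Rpl7, stood at 297, 323 and 316 CPM after Cre and at 210.5, 235 and 229.6 CPM after TMPyP4 (0.47 ± 0.08, adjusted p = 4.06e-04). In both genes the groups did not overlap, and blocking by replicate number, which paired these libraries, called the same 2 genes.

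Of the 7 paralogs tested, 4 rose after Cre in Rtel1 F/F cells (Rps27l, Rpl22l1, Rpl36al and Rpl7l1), with a median log2 fold change of 1.06 over the 7, and 48 of the other 77 rose, with a median of 0.50, beside 22.0% of all tested genes. Against RTEL1 CA +GFP none of the 7 was called after Cre, with 2 at an unadjusted p under 0.05 and a median of 0.07. There 3.80% of all tested genes were higher and 3.95% lower, and Rps27l was at 0.23 ± 0.10 (adjusted p = 0.150). Rps27l stood at 101, 95.2 and 103 CPM in the +GFP libraries and at 266, 200.2 and 217 CPM in the +Cre libraries (log2 1.19 ± 0.10, adjusted p = 2.05e-08). It was higher after Cre than after GFP in every library of all 3 cell backgrounds, at 218, 237 and 247 CPM against 186, 217 and 181 CPM in RTEL1 CA cells, although there it did not pass (0.27 ± 0.10, adjusted p = 0.169). Its parent Rps27 stood at a few CPM beside a far more abundant retrocopy, and is taken up below.

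Cdkn1a and Mdm2, which p53 also induces, rose after Cre in the same 3 backgrounds. The log2 fold changes of Cdkn1a were 1.22 in Rtel1 F/F, 0.62 in RTEL1 CA and 0.77 in Terf1 F/F cells, and those of Mdm2 were 1.20, 0.48 and 0.80. Both were also higher after Cre than after TMPyP4 (0.38 and 0.64). Whether Rps27l moved with these genes for a shared reason was not tested.

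Rpl22l1 stood at 94.2, 85.4 and 89.6 CPM with GFP and at 164, 225 and 179.7 CPM with Cre (log2 1.08 ± 0.23, adjusted p = 8.23e-04), and its parent Rpl22 at 244, 239 and 254 CPM against 384, 414 and 395 CPM (0.70, adjusted p = 4.28e-06). Both were higher in every +Cre library. Rpl36al stood at 78.1, 64.9 and 72.7 CPM against 142, 159 and 147 CPM (1.06 ± 0.11, adjusted p = 3.22e-07), and its parent Rpl36a at 267, 245 and 269 CPM against 462, 559.8 and 486 CPM (0.95, adjusted p = 6.52e-07). Rpl7l1 rose after Cre (0.65 ± 0.08, adjusted p = 4.05e-06) and stood at 0.18 ± 0.08 after TMPyP4 (adjusted p = 0.0988), with 204, 189 and 204 CPM in the +GFP libraries, while its parent Rpl7 rose in both (0.59 and 0.52). Against RTEL1 CA +GFP, Rpl22l1 was at 0.31 ± 0.23 after Cre, Rpl36al at -0.09 ± 0.11 and Rpl7l1 at 0.07 ± 0.08. Neither these paralogs nor their parents were called after Cre against that control.

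**Figure D4:**
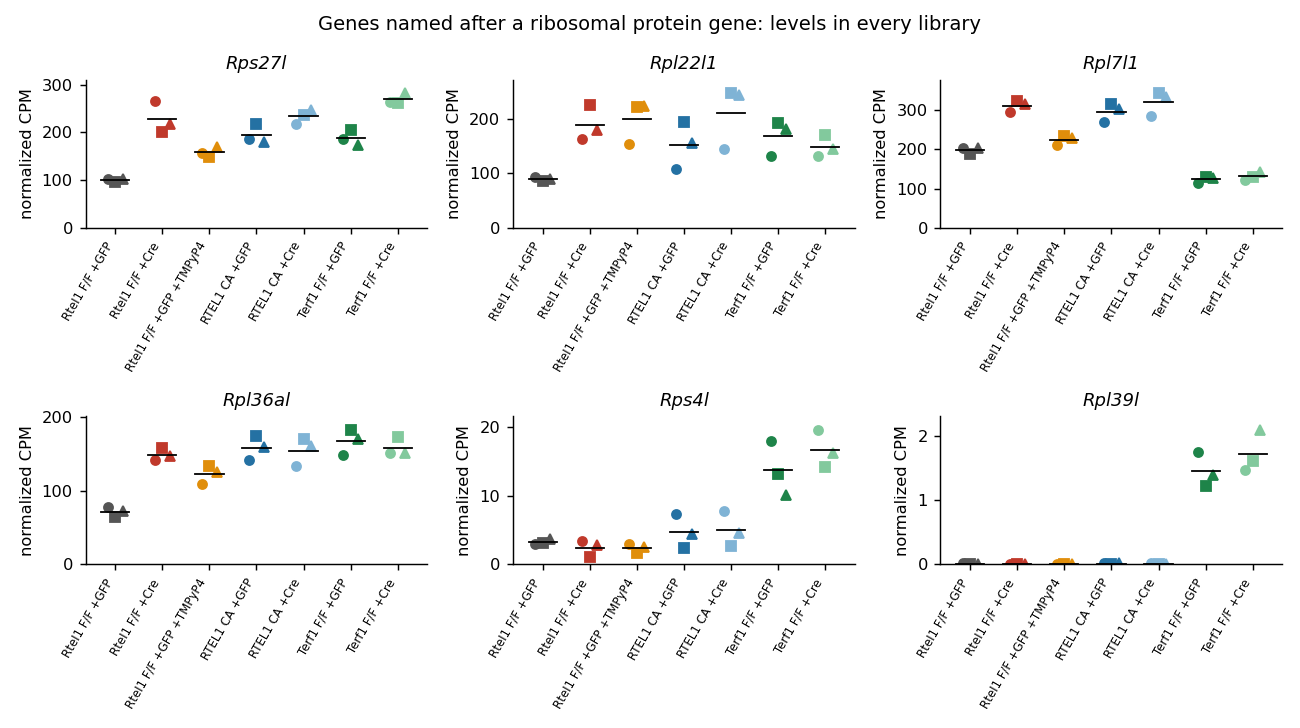
Normalised CPM of 6 paralogs in each library, on linear axes that start at 0 and differ between panels (marker shapes, replicates; black line, group mean of 3). Within each cell background all Cre libraries have more Rps27l than all GFP libraries, and Rps4l and Rpl39l are highest in the 6 Terf1 F/F libraries.

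The Terf1 line was compared with the Rtel1 line through the GFP-infected controls of both. Between Terf1 F/F +GFP and Rtel1 F/F +GFP cells, 21 of the 84 were higher in the Terf1 line and 6 lower, where 30.3% of all tested genes were higher and 24.5% lower. All libraries were higher for 31 and lower for 15, against 38.4% and 34.2% of tested genes. The median log2 difference was 0.14, and it was -0.08 once log ratios were corrected for transcript GC content. Rpl39l, a paralog of Rpl39 known from testis, stood at 1.74, 1.22 and 1.39 CPM in the GFP libraries of the Terf1 line and 1.47, 1.60 and 2.09 CPM in its Cre libraries, each on 53 to 78 counts. In the 15 libraries of the Rtel1 line it had 4 counts in all and 0 in 11. The ratio between the +GFP groups rested on 184 counts against 1 and was 208, with an exact 95% interval of 36.9 to 8260 that covers counting error only.

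Rps4l, a paralog of Rps4x, stood at 17.9, 13.1 and 10.1 CPM in Terf1 F/F +GFP and at 3.00, 3.19 and 3.77 CPM in Rtel1 F/F +GFP libraries (log2 2.04 ± 0.43, adjusted p = 5.03e-04). Among the 6 lower members, Rps3a1 stood at 591, 700.4 and 677 CPM against 1495, 1385 and 1517 CPM (-1.16 ± 0.09, adjusted p = 2.06e-09), Rplp0 at 1391, 1298 and 1104 CPM against 2937, 2933 and 3345 CPM (-1.28 ± 0.23, adjusted p = 8.91e-05) and Rps10 at 476, 366 and 335 CPM against 708, 677 and 766 CPM (-0.87, adjusted p = 4.44e-04). None of these ranges overlapped. The other 3 were Rps2 (-0.71), Rpl7l1 (-0.69) and Rps18 (-0.59). After Cre in Terf1 F/F cells Rps3a1 stayed in its range, at 623, 627 and 672 CPM. Cell line and floxed gene cannot be told apart in this comparison. Against RTEL1 CA +GFP in place of Rtel1 F/F +GFP, 2 of the 84 were higher in Terf1 F/F +GFP cells and 46 lower, where 31.9% of all tested genes were higher and 26.6% lower, with a median log2 difference of -0.44. The 2 higher genes were Rpl39l and Rps4l (1.53 ± 0.42 for the latter), Rps3a1 (-1.75 ± 0.09), Rplp0 (-1.13 ± 0.22) and Rps10 (-1.18 ± 0.18) were lower as before, and Rpl26 turned to -0.64 ± 0.34 (adjusted p = 0.111).

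Some members differed widely between replicates of one group. In 13 genes the highest library of some group, itself at 5 CPM or more, was over 2-fold above the lowest: Rpl8, Rpl18, Rpl26, Rpl34, Rpl36, Rpl41, Rplp1, Rplp2, Rps4l, Rps15, Rps26, Rps27 and Rps29. By group this held for 1 gene in Rtel1 F/F +GFP, 11 in +Cre, 6 in +TMPyP4, 9 in each RTEL1 CA group, 5 in Terf1 F/F +GFP and 1 in Terf1 F/F +Cre. The share of all tested genes with such a spread is not given here, so these counts cannot be read as particular to the members. The widest range was that of Rps27, 8.66-fold after TMPyP4, on levels of only 1.76 to 15.2 CPM. Rpl36, named for its spread, stood at 492, 65.8 and 404 CPM after Cre in Rtel1 F/F cells, a 7.47-fold range with replicate 2 lowest. Replicate 2 was also the lowest for Rpl36 in +TMPyP4 (401, 127 and 308 CPM) and RTEL1 CA +GFP cells (482, 91.7 and 177 CPM).

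**Figure D5:**
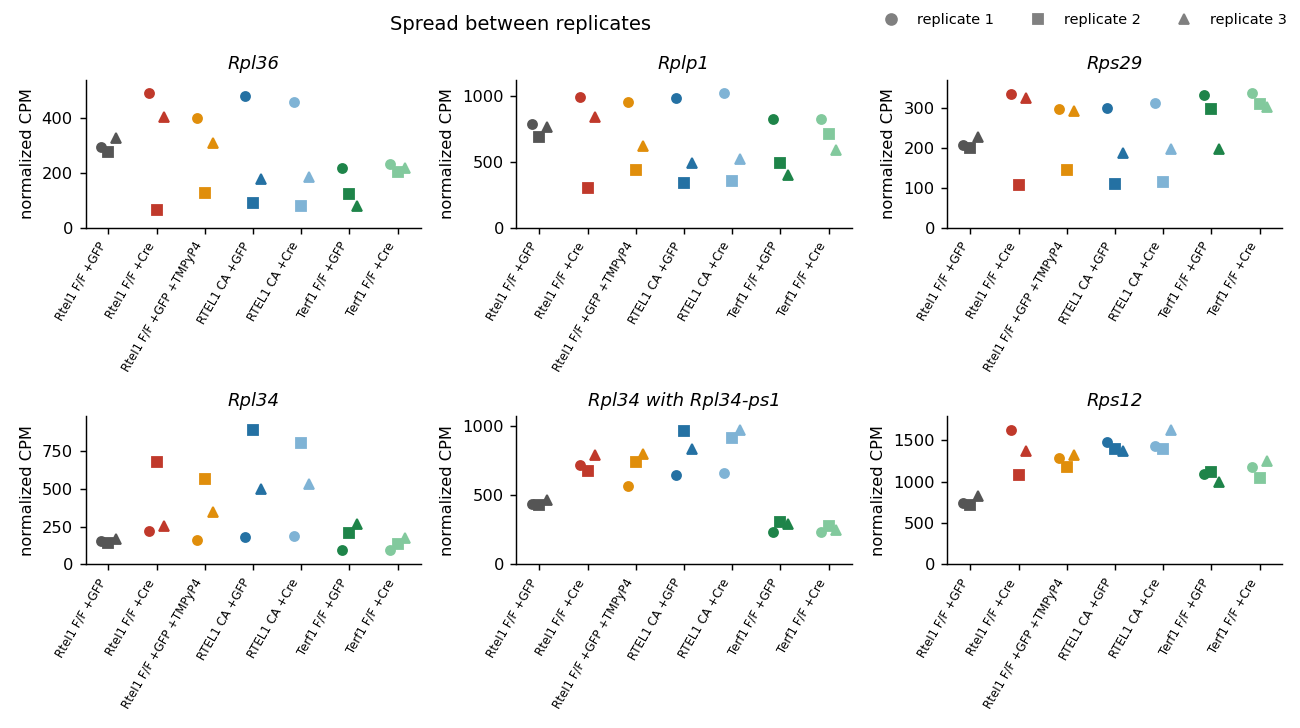
Normalised CPM in each library for Rpl36, Rplp1, Rps29, Rpl34, the sum of Rpl34 and its copy Rpl34-ps1, and Rps12, on linear axes that start at 0 (marker shapes, replicates 1 to 3). In Rtel1 F/F +Cre cells replicate 2 is lowest for Rpl36 and highest for Rpl34, at 65.8 and 677 CPM, and the Rpl34 sum stays between 677 and 791 CPM.

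The base composition of the transcripts moved with these patterns. Over the 84 genes, Spearman's correlation of the log2 fold change with transcript GC content was -0.42 for Cre and -0.39 for TMPyP4 in Rtel1 F/F cells, and -0.43 for RTEL1 CA +GFP against Rtel1 F/F +GFP. Over all 13626 genes with a GC value it was -0.32, -0.33 and -0.35. In +Cre replicate 2 the deviation of the 84 genes from their group mean had a correlation of -0.59 with GC content. For replicate 2 it was -0.56 in +TMPyP4, -0.58 in RTEL1 CA +GFP and -0.59 in RTEL1 CA +Cre cells. These correlations are across genes of the same libraries and describe them. The members had a median GC content of 51.6% against 50.1% for all genes tested, and a median length of 925.5 against 3128 bases.

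Within one range of GC content the members lay above the other genes in the comparison of Cre with GFP in Rtel1 F/F cells. Their median log2 fold change was 0.67 at 45 to 50% GC (28 genes) and 0.28 above 55% GC (20 genes), against 0.08 and -0.37 for other genes. With log ratios corrected for GC content, a correction chosen after seeing the data, 64 of the 84 rose after Cre, where 29.3% of all tested genes did, and 59 rose after TMPyP4, where 24.0% did. These GC values are all against Rtel1 F/F +GFP. GC correction was not run with RTEL1 CA +GFP as the control, against which none of the 84 was called higher without it. The part of GC content in the remaining differences was not tested.

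Reads of ribosomal protein genes can also be shared with near-identical copies, and the estimated counts divide them. Rpl34, named for its spread, stood at 222, 677 and 258 CPM after Cre in Rtel1 F/F cells, while its copy Rpl34-ps1 stood at 493, 0 and 533 CPM in the same libraries. The library in which Rpl34 was high was the one in which its copy had no counts, and the sum of both was 716, 677 and 791 CPM, against 439, 431 and 463 CPM with GFP. Rpl34 alone did not pass (log2 1.31, adjusted p = 0.0846), and the sum did (0.72, adjusted p = 8.45e-04). In Terf1 F/F against Rtel1 F/F +GFP cells the direction turned, from 0.30 for Rpl34 alone (adjusted p = 0.685) to -0.66 for the sum (adjusted p = 0.00137). Rps27rt, a copy of Rps27, stood at 272 to 634 CPM over the libraries, so that values of Rps27 itself are uncertain. Of the 7 genes in the table whose symbols mark them as ribosomal protein pseudogenes, none rose and 1 fell after Cre in Rtel1 F/F cells, Rps19-ps3 (log2 fold change -0.91, adjusted p = 0.0052). Pseudogenes outside the table were not analysed here.

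Genes that work with the ribosomal proteins were followed as lists. After Cre in Rtel1 F/F cells, 30 of 34 ribosome assembly genes rose and none fell (median log2 fold change 0.89), with nucleolin (Ncl, 1.42) and Tsr1, which matures the small subunit, (1.35) highest. Of 15 translation factors and related genes with TOP mRNAs 12 rose and none fell (0.64), with Npm1 (1.37) and Eef1d (0.89) highest, and of 12 RNA polymerase I genes 7 rose and none fell (0.45). Of 77 mitochondrial ribosomal proteins 47 rose and none fell (0.43). Of 16 genes that control ribosomal protein synthesis, 4 rose, Cdkn1a and Mdm2 by the most, and 2 fell, the mTOR inhibitors Deptor (-0.62) and Tsc1 (-0.48). These counts stand beside the 22.0% of all tested genes that rose and the 21% that fell. Against RTEL1 CA +GFP, 2 of the 16 were higher after Cre and none lower, where 3.80% of all tested genes were higher and 3.95% lower. Deptor and Tsc1 were thus not called lower against that control. After TMPyP4, 3 of the 16 were higher against it and none lower, where 9.94% of all tested genes were higher and 7.07% lower.

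The same lists shifted in the other comparisons that share the Rtel1 F/F +GFP libraries. After TMPyP4, 28 assembly genes (median log2 fold change 0.56), 13 TOP genes (0.46), 5 polymerase I genes (0.25) and 23 mitochondrial ribosomal proteins (0.26) rose, and in RTEL1 CA +GFP cells 30, 12, 8 and 47 were higher (0.96, 0.48, 0.44 and 0.42), with none lower in either, beside 16.6% of all tested genes that rose after TMPyP4 and 22.6% that were higher in RTEL1 CA +GFP cells. Cre in RTEL1 CA and in Terf1 F/F cells called none of these 4 lists' genes with edgeR. For assembly, TOP, polymerase I and mitochondrial genes in turn, 2, 1, 0 and 2 reached an unadjusted p under 0.05 in RTEL1 CA cells and 0, 3, 1 and 7 in Terf1 F/F cells, and DESeq2 called 1 gene, a TOP gene lower in Terf1 F/F cells. Between Cre and TMPyP4 in Rtel1 F/F cells, 11 of 34 assembly genes were higher after Cre and none lower, where 6.13% of all tested genes were higher, with a median log2 difference of 0.34, beside 2 of the 84 cytosolic ribosomal protein genes with a median of 0.03. Ncl rose by 0.94 after TMPyP4, and Tsr1 was 0.64 higher after Cre than after TMPyP4. Against RTEL1 CA +GFP, 13 of the 34 were lower after TMPyP4 and none higher (median log2 difference -0.39), where 7.07% of all tested genes were lower and 9.94% higher. Of TOP, polymerase I and mitochondrial genes in turn, 2, 3 and 7 were lower (-0.03, -0.24 and -0.13) and 0, 0 and 1 higher. After Cre edgeR called none of these 4 lists' genes against this control, where 3.80% of all tested genes were higher and 3.95% lower. For assembly, TOP, polymerase I and mitochondrial genes in turn, 3, 2, 1 and 8 reached an unadjusted p under 0.05.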

How the data were processed

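Poly(A) RNA-seq of 21 libraries was used. Per the methods and the submitters' processing notes, the authors trimmed reads with cutadapt 1.9.1 and quantified RefSeq genes of mm10 with RSEM 1.3.0 around STAR 2.5.2a, with strand taken into account. They deposited expected counts, which RSEM divides among similar copies and which were rounded here, and TPM, used here only for levels. Labels and methods differ on read length, serum and read pairing, and the effect on these values was not tested.

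Genes passing filterByExpr (13719) were fitted with edgeR 4.0.16 (R 4.3.3): TMM scaling, 1 coefficient for each of 7 groups over all libraries, 14 residual degrees of freedom, robust quasi-likelihood, two-sided tests, Benjamini-Hochberg adjustment over all genes, called at 0.01. p-values measure the spread between libraries labelled as biological replicates. CPM used TMM-scaled totals. On simulated counts of the comparison of Rtel1 F/F +Cre with +GFP the script was tested before use. DESeq2 1.42.0, other scalings and filters, left-out libraries, a replicate block and another control were alternatives; GC correction, summed copies, leaving out every replicate 2 and the other control in 3 further comparisons were added after seeing the data. Genes named are paralogs and parents, Mdm2 binders, well-known members, the highest and lowest by TPM, and the largest changes with no overlap. Members and lists were chosen with earlier results of these data known. Replicate numbers paired libraries where same-numbered libraries deviated together over 11840 genes: RTEL1 CA Cre and GFP (r = 0.864, 0.839 and 0.424) and Rtel1 F/F Cre and TMPyP4 (0.724, 0.758 and 0.409). For Terf1 F/F Cre and GFP r was 0.552, 0.358 and -0.1, and in the other comparisons examined it was at most 0.133. Pairing of RTEL1 CA libraries with Rtel1 F/F Cre or TMPyP4 libraries was not examined, and tests with RTEL1 CA +GFP as control were unpaired. A few single genes and a wider member list are not reported here.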

Additional observations from a re-analysis of the deposited data

Results flagged for a closer look

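The effect of Cre differed between cell backgrounds for part of the genes, by the test of the difference itself (edgeR quasi-likelihood test, Benjamini-Hochberg adjusted). Against RTEL1 CA cells, 34 of the 84 ribosomal protein genes had a greater effect in Rtel1 F/F cells and none a smaller one. Of all tested genes 12.8% had a greater and 12.3% a smaller effect. The largest differences that passed were those of Rpl30, by 1.93 on the log2 scale (adjusted p = 0.00121), Rps27a, by 1.24 (adjusted p = 4.82e-05), and Rpl36al, by 1.09 (adjusted p = 3.49e-05). Against Terf1 F/F cells 41 genes had a greater effect and none a smaller one, where 15.8% and 14.5% of all tested genes differed in those directions. The largest were those of Rpl30, by 2.26 (adjusted p = 2.91e-04), Rpl26, by 1.92 (adjusted p = 0.00465), and Rps27a, by 1.36 (adjusted p = 1.44e-05). In all 3 Cre libraries of Rtel1 F/F cells these genes were above the 3 +GFP libraries. Both sets of differences contain the same 3 Rtel1 F/F +GFP libraries, which were also low for these genes against RTEL1 CA +GFP cells, and with RTEL1 CA +GFP libraries in their place 0 of the 84 genes differed in either set. With that control 1.76% of all tested genes were higher and 2.54% lower in the difference from RTEL1 CA cells. In that from Terf1 F/F cells the shares were 1.64% and 2.73%. Without all libraries numbered 2, the counts were 17 and 20, and the shares of all tested genes in that smaller fit are not given here.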

How the results depend on the processing

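Under most alternatives the counts of called ribosomal protein genes stayed within 1.5 times and the medians within 1 SD of the values given. The exceptions follow, and their cause was not tested unless the alternative's construction (fewer genes, fewer libraries) shows it. No share of all tested genes is given under the alternatives of this section, apart from those with RTEL1 CA +GFP stated earlier. Whether all tested genes gained or lost calls alike therefore cannot be told from these counts. With RTEL1 CA +GFP as control, 0 genes were called for Cre (median log2 fold change -0.057) and 2 for TMPyP4 (-0.066), 48 for Terf1 F/F +GFP (-0.443), and 0 for both differences in Cre effect (-0.064 from RTEL1 CA and -0.097 from Terf1 F/F cells). Requiring a log2 fold change of at least 1 left 9 genes for Cre and 6 for TMPyP4 in Rtel1 F/F cells, 0 for Cre in Terf1 F/F cells, 0 for Cre against TMPyP4, 8 for RTEL1 CA +GFP and 6 for Terf1 F/F +GFP against Rtel1 F/F +GFP, and 5 and 9 for the difference in Cre effect from RTEL1 CA and Terf1 F/F cells. Without all libraries numbered 2, TMPyP4 called 32, Cre against TMPyP4 1, and the differences in effect 17 and 20, with no share of all tested genes given for that smaller fit. A fit of only the groups compared called 1 for Cre against TMPyP4. With paralogs left out, Terf1 F/F Cre and Cre against TMPyP4 called 0. For RTEL1 CA +GFP against Rtel1 F/F +GFP the median was 0.469 with library totals in place of TMM and 0.721 with GC correction. For Terf1 F/F against Rtel1 F/F +GFP it turned to -0.077 with GC correction. Library totals moved the median of all genes by up to -0.164.

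The replicate number as a block gave 55 called genes for Cre and 52 for TMPyP4 in Rtel1 F/F cells, where the numbers did not pair libraries, and changed no count by over 1.5 times. With GC correction and the replicate block, Cre against TMPyP4 called 4, the difference in effect from RTEL1 CA cells 59, and the medians were 0.718 for RTEL1 CA +GFP and -0.082 for Terf1 F/F +GFP against Rtel1 F/F +GFP, where Rpl7 (-0.28) and Rps3 (-0.26) turned.

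Leaving out each library in turn gave 45 to 53 genes for Cre and 34 to 48 for TMPyP4 in Rtel1 F/F cells, 0 in RTEL1 CA cells, 0 to 1 in Terf1 F/F cells, 2 to 3 for Cre against TMPyP4, 49 to 55 and 19 to 27 for RTEL1 CA +GFP and Terf1 F/F +GFP against Rtel1 F/F +GFP, and 25 to 40 and 29 to 42 for the differences in effect.

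With RTEL1 CA +GFP as control, log2 fold changes of named genes turned as follows. For Cre these were Rpl10 (-0.214), Rpl11 (-0.127), Rpl22 (-0.059), Rpl23 (-0.075), Rpl26 (-0.195), Rpl36al (-0.087), Rpl38 (-0.141), Rpl5 (-0.059), Rps12 (-0.062), Rps18 (-0.016), Rps2 (-0.111), Rps27a (-0.107), Rps3 (-0.157), Rps4x (-0.101), Rps6 (-0.189), Rps7 (-0.001). For TMPyP4 they were Rpl10 (-0.063), Rpl11 (-0.208), Rpl22 (-0.082), Rpl23 (-0.066), Rpl26 (-0.289), Rpl30 (-0.281), Rpl36a (-0.002), Rpl36al (-0.368), Rpl38 (-0.118), Rpl5 (-0.150), Rpl7 (-0.021), Rpl7l1 (-0.399), Rps12 (-0.168), Rps18 (-0.037), Rps2 (-0.066), Rps27a (-0.319), Rps27l (-0.301), Rps3 (-0.132), Rps4x (-0.038), Rps6 (-0.137), Rps7 (-0.030). Of genes named in other comparisons, Rpl7a (-0.262 and -0.344) and Rps3a1 (-0.151 and -0.101) turned for Cre and TMPyP4, and of genes called in neither, Rps10 (-0.019 and -0.122) and Rpl34 (-0.441 and -0.541) turned for both and Rps19 (-0.059) for Cre. For Terf1 F/F +GFP they were Rpl10 (-0.358), Rpl11 (-0.519), Rpl22 (-0.545), Rpl23 (-0.329), Rpl26 (-0.638), Rpl3 (-0.165), Rpl36a (-0.633), Rpl38 (-0.359), Rpl39 (-0.630), Rpl7 (-0.446), Rps12 (-0.408), Rps27a (-0.516), Rps27l (-0.046), Rps3 (-0.623), Rps4x (-0.528), Rps6 (-0.388), Rps7 (-0.274). For the difference in Cre effect from RTEL1 CA cells they were Rpl11 (-0.121), Rpl22 (-0.089), Rpl23 (-0.066), Rpl30 (-0.009), Rpl36al (-0.051), Rpl38 (-0.139), Rpl39 (-0.055), Rpl5 (-0.085), Rpl7l1 (-0.042), Rps12 (-0.132), Rps27a (-0.204), Rps27l (-0.041), Rps6 (-0.159), Rps7 (-0.074), and for that from Terf1 F/F cells Rpl10 (-0.072), Rpl11 (-0.044), Rpl36al (-0.009), Rpl38 (-0.092), Rpl5 (-0.063), Rpl7l1 (-0.017), Rps12 (-0.177), Rps27a (-0.083), Rps27l (-0.288), Rps6 (-0.136), Rps7 (-0.062).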
